A study of Mus musculus with 30 samples.

Results

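The metabolic nuclear receptors described here are 9 genes. They are a named list and not a cut on measured values, but were chosen with earlier results of these data known. The genes are Nr1h4 (FXR), Nr1h3 (LXR-alpha), Nr1i2 (PXR), Nr1i3 (CAR), Ppara, Pparg, Rxra, Nr5a2 (LRH-1) and Rora. They are 9 of the 51826 gene identifiers in the count table, and all 9 passed the filter on low counts that left 19685 genes for testing. Their levels were followed in left liver lobes of male C57BL16 mice (strain as spelled in the labels) exposed to 56Fe ions (0.2 Gy, 600 MeV/n), against mice left non-irradiated. Lobes were taken 30, 60, 120, 270 and 360 days after irradiation, called months 1, 2, 4, 9 and 12 here, with 3 biological replicates in each of the 10 groups. Every control group is a set of non-irradiated animals of the same month, and the age of the animals is not given in the sources used here.

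Nuclear receptors are transcription factors that sit on DNA and change the expression of nearby genes when a small fat-soluble molecule binds them. In the liver, FXR responds to bile acids, LXR-alpha to oxidised cholesterol, PXR and CAR to drugs and other foreign compounds, and the PPARs to fatty acids. Most of these receptors bind DNA paired with RXR-alpha, whereas LRH-1 and ROR-alpha bind as single molecules, LRH-1 on genes of bile acid and cholesterol handling and ROR-alpha on genes of the circadian clock and of lipid metabolism.

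Sequence before the start site is shown for 3 members: Nr1h4 and Ppara, which are the members with a called difference between irradiated and control livers, and Nr1i3, whose window was the 1 of 14 member windows to hold the clock factor motif CACGTG. Sequences are from RefSeq (build GRCm38.p6), cover the 250 bases before the annotated start, read 5′ to 3′ on the gene's strand, and carry motif matches in capitals. All 9 members matched the RefSeq table, with 14 windows because some genes have several annotated starts.
Nr1h4, chr10:89506659-89506908, minus strand: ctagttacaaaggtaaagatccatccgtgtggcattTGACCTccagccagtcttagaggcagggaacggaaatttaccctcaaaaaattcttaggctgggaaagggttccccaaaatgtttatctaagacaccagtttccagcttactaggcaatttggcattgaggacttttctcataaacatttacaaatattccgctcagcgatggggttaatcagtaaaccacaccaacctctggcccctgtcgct
Ppara, chr15:85735526-85735775, plus strand: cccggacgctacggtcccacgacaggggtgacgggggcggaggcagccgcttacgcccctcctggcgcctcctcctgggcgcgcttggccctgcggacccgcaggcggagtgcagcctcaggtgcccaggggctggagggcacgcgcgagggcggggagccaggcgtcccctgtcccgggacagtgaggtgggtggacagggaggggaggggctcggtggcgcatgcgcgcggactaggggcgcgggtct
Nr1i3, chr1:171213720-171213969, plus strand: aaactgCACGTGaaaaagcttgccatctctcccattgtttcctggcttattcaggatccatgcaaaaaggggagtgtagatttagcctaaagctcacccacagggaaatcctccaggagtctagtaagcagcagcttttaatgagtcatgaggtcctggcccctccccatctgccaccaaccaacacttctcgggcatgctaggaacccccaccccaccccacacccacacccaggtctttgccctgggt

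The CACGTG match in Nr1i3 begins 244 bases before its start, and 6.02% of 32851 RefSeq windows of the same length hold that motif. The nuclear receptor half-site AGGTCA, searched on both strands, is in 14% of all windows and in 5 of the 14 member windows, once in Nr1h4 beginning 214 bases before the start (on the other strand, so printed as TGACCT). The other 4 windows with AGGTCA belong to Nr5a2, Pparg (2 starts) and Rxra, where 1 window holds 2 matches. The D-box motif TTANGTAA is in 2.06% of all windows and in none of the 14. None of these motifs overlaps another in the printed windows, and a match of letters is a description and not a site of binding.

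Library totals ran from 7995248 to 20215995 counts. The 12 libraries of months 1 and 2 held 3.04% to 7.57% of their counts in the noncoding transcript Gm26917, against 0.452% to 2.04% in the 18 libraries of months 4, 9 and 12, so a difference between these sets of months and a difference in library makeup cannot be told apart. Within a month the Gm26917 share averaged 6.77% in irradiated and 4.10% in control livers at month 1, and 5.65% in irradiated and 4.03% in control livers at month 2. It averaged 0.915% in irradiated and 0.490% in control livers at month 4, and 0.870% in irradiated and 1.65% in control livers at month 12. Only at month 9, with 0.520% in irradiated and 0.500% in control livers, did libraries of the arms overlap in this share. At the other months a fit with this share as a covariate cannot tell it apart from irradiation. Of 12 hepatocyte markers such as Alb and Ttr, none was at 0 in any library. At month 1 their summed level ran from 52912.5 to 80550.4 CPM (counts scaled to library size by TMM factors) in irradiated livers. In control livers of month 1 it ran from 65106.6 to 89067 CPM. At month 2 the sum ran from 81871.1 to 92714.8 CPM in irradiated and 101971 to 108417 CPM in control livers, without overlap. The arms overlapped in this sum at months 1, 4, 9 and 12. Its part in the differences of month 2 was not tested. Irradiated month 1 replicate 3 and irradiated month 12 replicate 2 were over 1000 CPM of the acute phase gene Saa1. So were replicates 2 of control months 2 and 12. Calls of members, related receptors, coregulators and targets that were lost without these 4 libraries are named. By correlation, the 4 libraries least like their group included irradiated month 1 replicate 3 and control month 12 replicate 2. The rest of that set were irradiated month 9 replicate 2 and control month 1 replicate 3. The latter had the lowest total of all libraries and a Gm26917 share of 6.09%, against 3.17% and 3.04% in its group.

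Set side by side per kilobase of exon, Rxra was the most abundant member and Pparg the least. The mean over the 10 group means was 92.4 CPM per kb for Rxra, 59.1 for Nr1h4, 57.8 for Ppara, 35.8 for Nr1h3 and 29.5 for Nr1i2. The same measure was 16.2 CPM per kb for Nr5a2, 11.9 for Rora, 6.58 for Nr1i3 and 3.93 for Pparg, a receptor best known from adipose tissue. The ranges of group means overlapped between neighbours in this order, for example 44.6 to 73.2 CPM per kb for Nr1h4 and 34.4 to 75.8 CPM per kb for Ppara. The exception was Nr1i2, at 22.7 to 37.9 CPM per kb, against Nr5a2, at 13.1 to 18.9 CPM per kb.

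**Figure D1:**
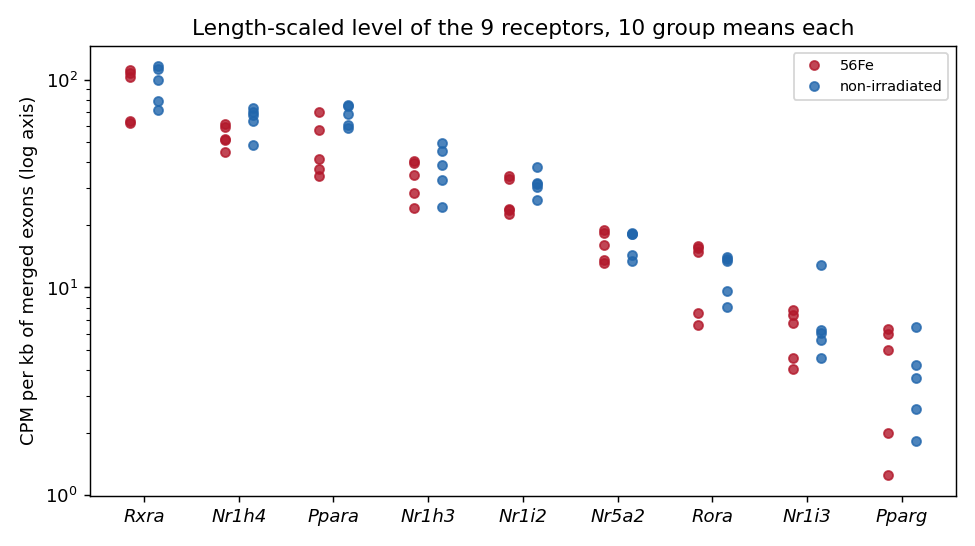
Length-scaled level (CPM per kb of merged exons, log axis) of the 9 receptors, with 1 point for each of the 10 group means, irradiated to the left of control. Rxra averaged 92.4 and Pparg 3.93 CPM per kb.

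Nr1h4 encodes FXR, the bile acid sensor that limits bile acid synthesis. At month 1 it measured 94.8, 94.3 and 119 CPM in irradiated livers, against 148, 179 and 156 CPM in control livers, and all 3 irradiated libraries lay below all 3 control libraries. The difference was -0.65 ± 0.17 (log2 irradiated over control, SE) and passed the test (adjusted p = 0.0255, edgeR quasi-likelihood, 3 libraries per group). It was the only one of 9 members called at month 1, where 4.60% of all genes were called, 3.11% lower and 1.49% higher, so a single call among 9 is not read as a property of the group. In these bulk samples fewer cells of a type and less RNA per cell cannot be told apart.

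That call is close to its threshold. The adjusted p was 0.204 with Gm26917 as a covariate, 0.0575 with upper quartile factors and 0.0815 with the 6 libraries of month 1 alone, and 0.0102 without the 4 libraries high in Saa1. It was lost on leaving out 10 of the 30 libraries in turn. These were replicate 1 (adjusted p = 0.184) and replicate 2 (0.180) of irradiated month 1, and replicate 1 (0.0662) and replicate 2 (0.257) of control month 1. The others were irradiated month 2 replicate 2 (0.0724), month 9 replicate 1 (0.0557) and month 12 replicate 3 (0.0649), and control month 2 replicate 1 (0.0662), month 4 replicate 3 (0.0504) and month 12 replicate 3 (0.0546).

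At later months Nr1h4 measured 142, 114 and 98.2 CPM in irradiated livers of month 2, against 114, 113 and 107 CPM in control livers, and the groups overlapped. At month 9 it measured 150.0, 152 and 105 CPM in irradiated livers, against 161, 163 and 182 CPM in control livers, with no overlap and a difference of -0.31 ± 0.17 that did not pass. Over the 5 months Nr1h4 averaged lower in irradiated livers by -0.26 ± 0.08 on the log2 scale (adjusted p = 0.0414, edgeR). Group means ran from 103 CPM in irradiated month 1 to 169 CPM in control month 9, and each pair of neighbours in the order of means overlapped.

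Ppara encodes the fatty acid sensor that drives fat oxidation during fasting. At month 1 it measured 135, 131 and 130.3 CPM in irradiated livers, against 270.5, 301 and 216 CPM in control livers. At month 2 it measured 162, 151 and 113 CPM in irradiated livers, against 229, 212 and 227 CPM in control livers. The arms did not overlap in either month, with differences of -0.99 ± 0.33 and -0.65 ± 0.33 on the log2 scale that did not pass (adjusted p = 0.0921 and 0.253, edgeR).

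At month 4 the order of the arms was the other way round, with 259, 279 and 269 CPM of Ppara in irradiated livers, against 257, 193 and 248 CPM in control livers. The log2 difference of 0.21 ± 0.33 did not pass (adjusted p = 0.783, edgeR). At month 9 Ppara measured 46.0, 245 and 188 CPM in irradiated livers, against 254, 291 and 327 CPM in control livers, and the value of 46.0 CPM in irradiated replicate 1 was the lowest of all 30 libraries. There the log2 difference of -0.86 ± 0.33 did not pass (adjusted p = 0.179, edgeR). Averaged over the months, Ppara was lower in irradiated livers by -0.53 ± 0.15 on the log2 scale and passed the test (adjusted p = 0.0362, edgeR). Together with Nr1h4 this makes 2 of 9 members called for the mean over months, where 5.26% of all genes were called and 2.81% were called lower.

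Both calls of the mean are also near the threshold. For Ppara the adjusted p was 0.389 with Gm26917 as a covariate, 0.0710 with upper quartile factors and 0.0978 without the 4 libraries high in Saa1. For Nr1h4 it was 0.247 with the covariate, 0.0936 with upper quartile factors and 0.0368 without those 4 libraries.

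Nr1i3 encodes CAR, which switches on genes that clear drugs. It measured 34.6, 36.5 and 26.7 CPM in irradiated livers of month 1, against 52.9, 55.4 and 61.6 CPM in control livers, and the 3 control libraries of month 1 were the highest of all 30. The log2 difference of -0.79 ± 0.36 did not pass (adjusted p = 0.253, edgeR). At month 4 the irradiated livers lay above, at 37.2, 25.2 and 26.9 CPM, against 21.3, 21.4 and 17.9 CPM in control livers, with a difference of 0.56 ± 0.36 that did not pass (adjusted p = 0.428, edgeR).

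The lowest values of Nr1i3 were single libraries: 9.07 CPM in irradiated month 9 replicate 1, 10.98 CPM in irradiated month 12 replicate 2 and 11.2 CPM in control month 12 replicate 2. The last 2 of these held 4303 and 1938 CPM of Saa1, and the first held 54.5 CPM. The part of the acute phase genes in the level of Nr1i3 was not tested. Exons of Nr1i3 overlap the opposite-strand gene Tomm40l, and the strand used in counting is not given in the sources used here. Exons of Rora likewise overlap the opposite-strand gene Gm15511, and those of Nr1h3 the same-strand gene Gm13783. Tomm40l measured 10.7, 8.29 and 8.77 CPM in irradiated livers of month 1, against 10.998, 13.99 and 14.01 CPM in control livers.

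**Figure D2:**
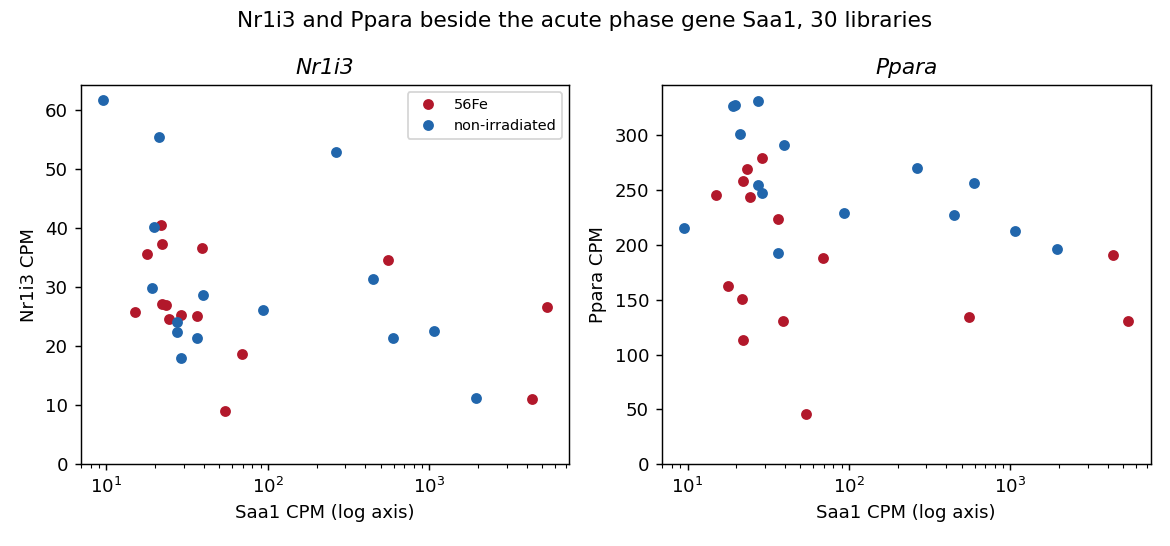
Nr1i3 (left) and Ppara (right) in CPM against Saa1 in CPM (log axis), 1 point per library, 15 irradiated and 15 control. The 4 libraries over 1000 CPM of Saa1 measured 10.98 to 26.7 CPM of Nr1i3, and irradiated month 9 replicate 1, with 54.5 CPM of Saa1, had the lowest Ppara (46.0 CPM).

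Nr1i2 encodes PXR, which like CAR senses foreign compounds. It measured 54.2, 63.3 and 64.2 CPM in irradiated livers of month 1, against 72.3, 75.4 and 53.6 CPM in control livers, and the groups overlapped. At month 9 it measured 44.9, 74.1 and 61.3 CPM in irradiated livers, against 80.5, 77.5 and 82.6 CPM in control livers, with no overlap, and the log2 difference of -0.42 ± 0.16 did not pass (adjusted p = 0.179, edgeR). Without irradiated month 9 replicate 2, the adjusted p at month 9 was 0.0276 for Nr1i2 and 0.0214 for Ppara.

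Pparg encodes a fat storage receptor that is low in normal liver. At month 1 it measured 4.08, 3.14 and 3.85 CPM in irradiated livers, the lowest 3 of 30 libraries, against 9.60, 7.18 and 6.20 CPM in control livers. These values rest on 40 to 46 counts per irradiated library, and the log2 difference of -1.07 ± 0.41 did not pass (adjusted p = 0.156, edgeR). At month 12 the spread within a group was wide, with 21.95, 6.83 and 27.2 CPM in irradiated livers, against 18.2, 10.1 and 9.35 CPM in control livers. Replicates 2 of both arms, at 6.83 and 10.1 CPM, are among the 4 libraries high in Saa1.

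Nr1h3 encodes LXR-alpha, the oxysterol sensor that raises lipogenic and cholesterol export genes. At month 4 it measured 90.6, 105 and 103 CPM in irradiated livers, against 119.8, 124 and 131 CPM in control livers, with no overlap. The log2 difference of -0.33 ± 0.13 did not pass (adjusted p = 0.153, edgeR). At month 1 the arms overlapped, at 53.7, 63.9 and 63.7 CPM in irradiated livers and 67.5, 66.4 and 50.8 CPM in control livers.

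Rxra encodes the shared partner of most of these receptors. At month 2 it measured 396, 320.0 and 301 CPM in irradiated livers, against 428, 429 and 441 CPM in control livers, with no overlap and a log2 difference of -0.35 ± 0.17 that did not pass (adjusted p = 0.218, edgeR). At the other months the arms overlapped, with log2 differences from -0.17 to 0.11. Control livers of month 12 were close together at 543, 545 and 538 CPM.

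Nr5a2 encodes LRH-1, a regulator of bile acid and cholesterol genes. Its log2 differences between irradiated and control livers ran from -0.19 to 0.06 over the 5 months, with overlapping libraries at each month. Group means ran from 77.3 CPM in irradiated month 2 to 111 CPM in irradiated month 12, where replicate 2 alone reached 148 CPM. That library is among the 4 high in Saa1, and without those 4 libraries the log2 difference at month 12 was -0.12.

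Rora encodes ROR-alpha, which activates the clock gene Arntl. At month 2 it measured 69.6, 96.8 and 91.2 CPM in irradiated livers, against 113, 122 and 142 CPM in control livers. The arms did not overlap, and the log2 difference of -0.55 ± 0.17 was just short of the threshold (adjusted p = 0.0608, edgeR). At month 1 the difference was -0.10 ± 0.17 with overlapping libraries, and at months 4, 9 and 12 it was 0.17 ± 0.17, 0.09 ± 0.17 and 0.24 ± 0.17.

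**Figure D3:**
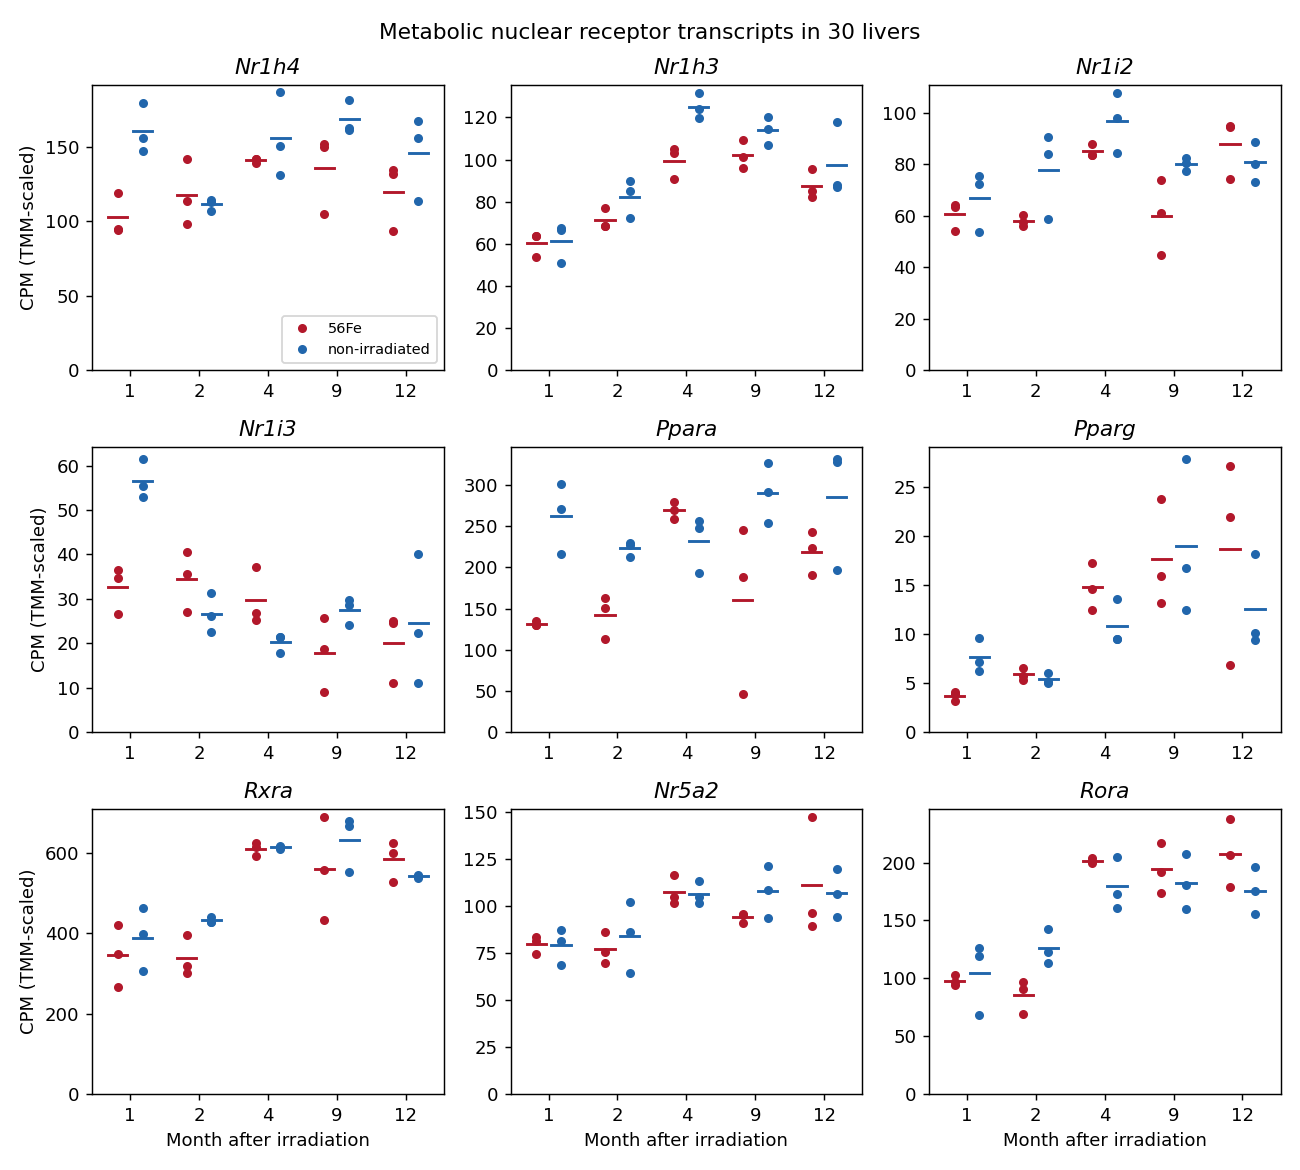
CPM (scaled by TMM factors) of the 9 receptors in each library by month after irradiation, irradiated livers (red) left of control livers (blue), with a bar at each group mean. Nr1h4 at month 1 is the only difference of a single month that passed the test, and Nr1i3 stands highest in control livers of month 1.

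Across the 5 monthly comparisons, 1 of 45 tests of members passed. No member was called at months 2, 4, 9 and 12, where 4.37%, 3.60%, 1.66% and 0.00% of all genes were called. With the replicate number fitted as a block, 39 genes were called at month 12 and again no member. Members under an unadjusted p of 0.05 numbered 4, 3, 1, 2 and 0 in order of the months, where 16.9%, 21.6%, 19.1%, 16.1% and 13.5% of all genes were under it. Among genes whose irradiated libraries all lay below the control libraries, members numbered 4 for month 1 (background 9.92% of genes), 3 for month 2 (18.6%), 1 for month 4 (15.9%) and 3 for month 9 (8.77%). Above the controls, 2 members stood at month 4 (14.3%). At month 12 no member stood apart in either direction (7.78% below and 7.74% above).

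**Figure D4:**
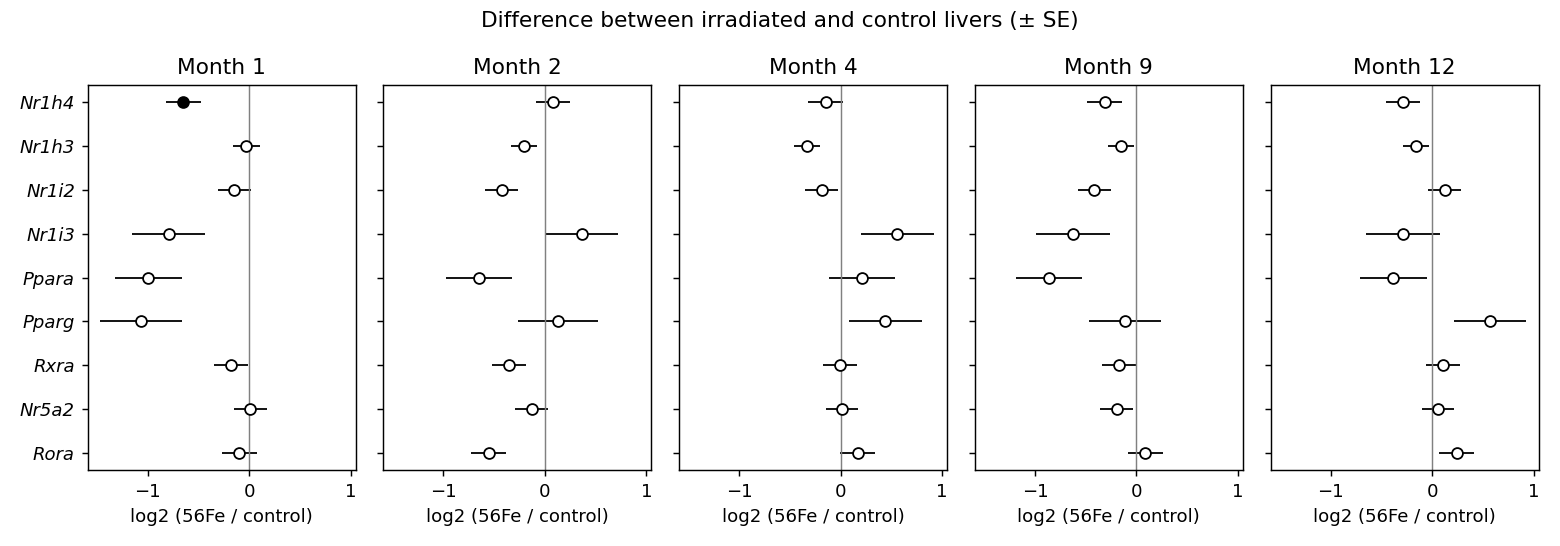
Log2 irradiated over control with its SE for the 9 receptors at each month, filled where adjusted p is under 0.05. Nr1h4 at month 1 (-0.65) is the only filled point, and at month 12 the values lie between -0.38 and 0.57.

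The median log2 difference over the 9 members was -0.17, -0.21, 0.01, -0.19 and 0.06 from month 1 through month 12, and the median over all genes was -0.03, -0.02, 0.04, 0.0039 and -0.02. No member passed the test that its irradiation effect differs between months, which 10.98% of genes passed. The smallest adjusted p there was 0.104 for Rora (edgeR, 4 degrees of freedom). On simulated data that test recovered 23% of 100 genes changed 2-fold in a single group, so smaller differences between months can be missed.

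Change over the year was the larger pattern, and 7 of 9 members were called in each arm, near the background of 59.04% in irradiated and 58.3% in control livers. The members not called were Nr1h4 and Nr1i3 in irradiated livers and Nr1i2 and Ppara in control livers. Rora averaged 98.0, 85.9, 202, 194 and 208 CPM in irradiated livers at months 1, 2, 4, 9 and 12, and 105, 126, 179.6, 183 and 175 CPM in control livers. Pparg averaged 3.69, 5.89, 14.8, 17.6 and 18.7 CPM in irradiated livers and 7.66, 5.38, 10.9, 19.0 and 12.6 CPM in control livers over the same months.

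The largest rise of Rora in both arms, and of Pparg in irradiated livers, lay between months 2 and 4, where library makeup also changes. Not all members shared it. Pparg in control livers averaged 10.9 CPM at month 4 and 19.0 CPM at month 9. Nr1i3 in control livers averaged 56.6 CPM at month 1 and 26.7 CPM at month 2. Within months 4, 9 and 12 no member was called in irradiated livers (background 2.93%) or control livers (20.2%). Between months 1 and 2, no member was called in irradiated livers (0.00508%) and 2 were called in control livers (9.80%). In control livers Nr1h3 rose from month 1 to month 2 by 0.42 ± 0.13 on the log2 scale (adjusted p = 0.0391) and Nr1h4 fell by 0.53 ± 0.17 (adjusted p = 0.0453), both by edgeR. With Gm26917 as a covariate, 1 member was called over time in irradiated livers (background 0.310%) and 0 in control livers (9.47%).

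Among other genes of the pathway, 19 related receptors were tested, and 2 rose and 3 fell at month 1, where 1.49% of all genes rose and 3.11% fell. Nr1d2, a clock repressor that binds ROR elements, measured 59.5, 71.9 and 61.9 CPM in irradiated livers, against 149, 146 and 125 CPM in control livers. Ppard, the third PPAR, measured 11.01, 10.01 and 15.1 CPM in irradiated livers, against 6.27, 4.54 and 6.11 CPM in control livers. The adjusted p-values were 6.23e-05 for Nr1d2 and 0.00691 for Ppard (edgeR). At month 9, where 0.498% of all genes fell, 2 of 19 fell, Esrra and Nr2f6, by 0.79 ± 0.15 and 0.72 ± 0.15 on the log2 scale.

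Of 20 coregulators, which receptors recruit to open or close chromatin, 4 rose at month 4, where 1.82% of all genes rose, and none was called at months 1, 2 and 12. Ncoa6, a coactivator, measured 25.02, 24.3 and 24.4 CPM in irradiated livers of month 4, against 17.5, 12.6 and 19.03 CPM in control livers, with a log2 difference of 0.59 ± 0.16 (adjusted p = 0.0348, edgeR). Kmt2d, a histone methyltransferase, rose by 0.54 ± 0.15 on the log2 scale (adjusted p = 0.0402, edgeR).

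Genes known to be regulated by the receptors were counted next, with lists chosen from textbook knowledge and with earlier results of these data known. The FXR list mixes genes that FXR activity raises, such as Nr0b2, with genes it lowers, such as Cyp7a1. Of 14 FXR targets tested, 2 fell and 1 rose at month 1, where 3.11% of all genes fell and 1.49% rose. Cyp7a1, which sets the rate at which bile acids are made, measured 46.2, 47.3 and 20.5 CPM in irradiated livers, against 270.4, 567 and 353 CPM in control livers, a log2 difference of -3.38 ± 0.64 (adjusted p = 0.00415, edgeR). Nr0b2 (SHP), a repressor of Cyp7a1 that FXR induces, measured 49.4, 47.6 and 35.9 CPM in irradiated livers, against 11.4, 16.6 and 21.7 CPM in control livers, while Nr1h4 itself was lower. Cyp7a1 and Nr0b2 are also among the 13 LRH-1 targets, of which 3 fell and 1 rose.

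Of 20 PXR and CAR targets, 4 fell at month 1 and none rose, beside 3.11% of all genes lower and 1.49% higher. Por, the electron donor of cytochromes P450, measured 136, 136 and 169 CPM in irradiated livers, against 374, 420.2 and 331 CPM in control livers, a log2 difference of -1.35 ± 0.19 (adjusted p = 4.01e-05, edgeR). Cyp2a5 fell by 2.13 ± 0.35 and Alas1, the first enzyme of haem synthesis, by 2.82 ± 0.48 on the log2 scale. Ugt1a1, a bilirubin-conjugating enzyme, fell at month 9 by 0.77 ± 0.18 (adjusted p = 0.0267, edgeR).

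Of 30 PPAR-alpha targets, 5 fell at month 1 and none rose, beside 3.11% of all genes lower and 1.49% higher. The list had a median of -0.65 against -0.03 over all genes. Cpt1a, which carries fatty acids to the mitochondrion, measured 215, 236 and 215 CPM in irradiated livers, against 519, 483 and 324 CPM in control livers (adjusted p = 0.000919, edgeR). Acot4 fell by 1.99 ± 0.47 and Hadha by 0.59 ± 0.17. No PPAR-alpha target was called at months 2, 4, 9 and 12, against 2, 1, 4 and 1 with the replicate number fitted as a block. Over all genes that block called 1327, 767, 525 and 39 at these months, against 860, 708, 326 and 0 without it.

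Of 15 LXR targets, a list that holds Nr1h3 itself, none was called at month 1 and 1 rose at month 2, where 2.57% of all genes rose and 1.80% fell. That gene, Mlxipl, a carbohydrate-sensing activator of lipogenesis, measured 418, 309 and 409.6 CPM in irradiated livers, against 191, 217 and 213 CPM in control livers (adjusted p = 0.0348, edgeR). Of 12 PPAR-gamma targets tested, 1 fell at month 2. It was Pck1, a gluconeogenic enzyme, at 2424, 2000 and 1647 CPM in irradiated livers, against 3594, 5209 and 5209 CPM in control livers (adjusted p = 0.0492, edgeR).

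Of 16 ROR targets, 5 rose and 1 fell at month 1, where 1.49% of all genes rose and 3.11% fell. Arntl, the core clock activator, measured 25.7, 25.5 and 38.4 CPM in irradiated livers, against 2.27, 1.91 and 2.44 CPM in control livers, a log2 difference of 3.75 ± 0.42 (adjusted p = 1.56e-05, edgeR), while Rora did not pass. Npas2, a clock protein that binds DNA as a pair with the Arntl product, rose by 3.21 ± 0.46. Of 20 clock genes, which overlap this list and the related receptors, 3 rose and 10 fell at month 1, and Per3 measured 16.4, 17.3 and 14.3 CPM in irradiated livers, against 142, 147 and 159 CPM in control livers. Clock genes thus moved in the same comparison as the receptor targets, the hour of collection is not given in the sources used here, and their part in these results was not tested.

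Several of these calls were lost on leaving out libraries or with the Gm26917 covariate. Of the 24 differences taken by the naming rule among related receptors, coregulators and targets, 16 were called without the 4 libraries high in Saa1, a fit that called 2.29% of genes at month 1 and 0.491% at month 2. Calls lost there were Nr0b2 (adjusted p = 0.0725), Hadha (0.189), Slc27a5 (0.267) and Fads1 (0.0558) at month 1. At month 2 they were Mlxipl (0.0794), Pck1 (0.186), Por (0.0972) and E2f8 (0.110), all by edgeR. Called at month 1 in that fit were 3 related receptors, 1 FXR target, 3 PXR and CAR targets, 2 PPAR-alpha targets, 2 LRH-1 targets and 7 ROR targets.

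With Gm26917 as a covariate, 0.589% of genes were called at month 1 and 9 of the 24 differences remained called. They were Nr1d2, Cyp7a1, Por, Alas1, Arntl and Npas2 at month 1, and Esrra, Nr2f6 and Ugt1a1 at month 9. No PPAR-alpha target was called at month 1 in that fit, where Cpt1a had an adjusted p of 0.185 (edgeR), and no gene was called at month 4. On leaving out each of the 30 libraries in turn, the call was lost in 26 fits for Nr0b2, 27 for Hadha, 23 for Pck1, 23 for Kmt2d and 16 for Ncoa6. It was lost in none of these fits for Nr1d2, Cyp7a1, Cyp2a5, Alas1, Cpt1a, Arntl and Npas2, nor for Por at month 1.

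**Figure D5:**
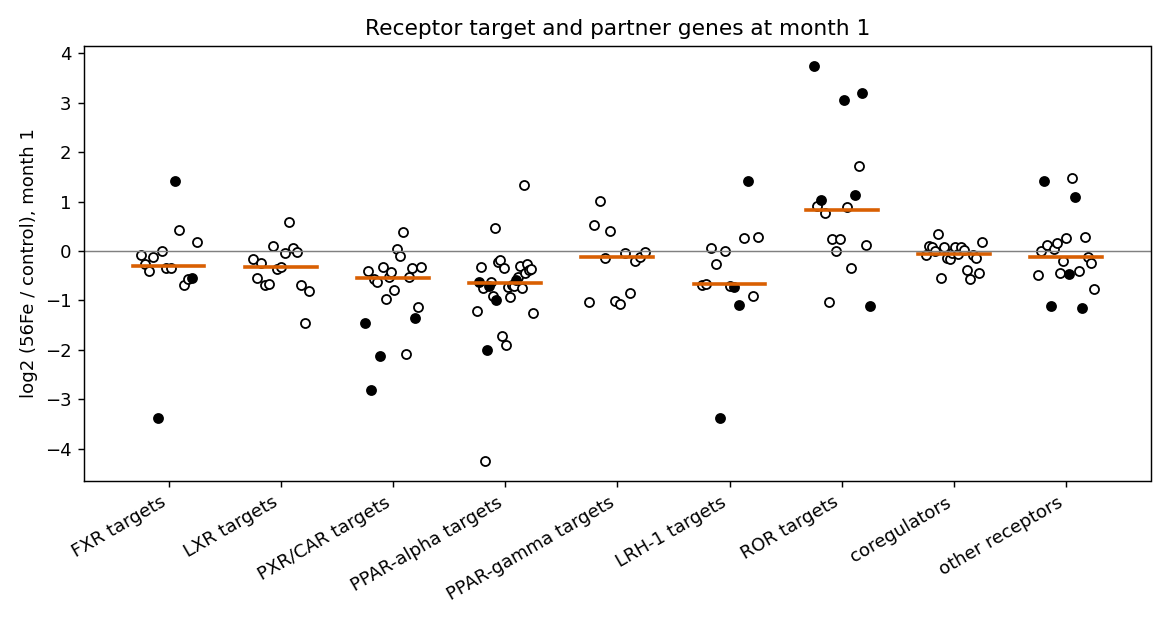
Log2 irradiated over control at month 1 for the tested genes of 9 lists, filled where adjusted p is under 0.05, with the list median as a bar. PPAR-alpha targets have a median of -0.65 and ROR targets a median of 0.83, and Arntl, a ROR target, stands at 3.75.

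By a fixed measure of likeness, the Pearson correlation over the 10 group means after centring months 1 and 2 and months 4, 9 and 12 separately, the closest of 12367 genes was Mrps9 for Nr1h4 (r = 0.96), Oplah for Ppara (0.97) and Serhl for Nr1i3 (0.97). The closest to Nr1h3 was Mrpl58 (0.99), to Nr1i2 Syde2 (0.93) and to Pparg Rasgrf2 (0.90). For Rxra it was Treh (0.96), for Nr5a2 N4bp2l1 (0.97) and for Rora Dgcr2 (0.91). These are the highest of many correlations over 10 points from shared libraries, and are given as a description. Among the members themselves, Nr1i2 and Nr5a2 were the closest pair (0.90).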

How the data were processed

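RNA from left liver lobes of 30 mice was sequenced after removal of ribosomal RNA, as paired 50-base reads, per the labels' protocols. The deposited table holds raw counts for each Ensembl identifier, which the authors took from STAR 2.5.3a in its gene count mode on GRCm38 with the Gencode M14 annotation, per the series' design text. The strand used in counting is not given in the sources used here. Symbols, coordinates and exon lengths came from Gencode M21 on the same build, which matched 51633 of 51826 identifiers. The members and all gene lists were chosen with earlier results of these data known.

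The counts went into edgeR 4.0.16 (R 4.3.3; TMM factors, robust quasi-likelihood fit, filterByExpr at 10 counts and a sum of 15) with 1 coefficient for each of the 10 groups. The 9 contrasts were the irradiation effect in each month, its mean over months, whether it differs between months, and change over time in each arm. P-values were adjusted by Benjamini-Hochberg over 19685 genes, and an adjusted p under 0.05 was called. The p-values measure the spread between the animals that the labels call biological replicates. Depth was 7995248 to 20215995 counts per library, and this bounds the precision of low genes such as Pparg. Named genes were, per list and month, up to 3 called genes with the smallest adjusted p at a mean of at least 1 CPM, with the 9 members in full. Per3, Saa1, Tomm40l and Gm26917 lie outside that rule; their values were known when they were chosen. Some genes that the rule selects are not reported here.

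The alternatives were RLE and upper quartile factors, other filters, DESeq2 1.42.0, limma 3.58.1 voom with sample weights, Gm26917 as a covariate, a replicate block, the 6 libraries of a month alone, subsets of months and leaving out each library. Of the 15 same-numbered pairs of libraries, the correlation of deviations from group means ran from -0.38 to 0.35. At month 12 all 3 pairs were over 0.1 (0.19, 0.35 and 0.19), but irradiated replicate 3 had a correlation of 0.23 with a control of another number. At month 4 the same-numbered pairs (0.099, 0.075 and 0.11) were each above the highest correlation with another number. Of the 15 pairs, 9 were highest with their own number, and these correlations do not settle whether the numbers pair animals. With the block, the count of members called at month 12 stayed at 0. The statistical scripts were tested on simulated data, with changes set in irradiated month 1 alone. The test of month 1 recovered 63% of 100 genes changed 2-fold and 88% of 100 changed 4-fold. The test of a difference between months recovered 23% and 71% of them.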

Additional observations from a re-analysis of the deposited data

Results flagged for a closer look

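For Nr1i3 the irradiated libraries lay wholly below the controls at month 1 and wholly above them at month 4, and the test that the effect differs between months did not pass (adjusted p = 0.178, edgeR). Ppara lay below at months 1, 2 and 9 and above at month 4, again without passing that test (adjusted p = 0.268, edgeR).

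Other named genes passed the same test of a difference between months in edgeR. Among related receptors the adjusted p was 0.00300 for Nr1d2, 0.00399 for Ppard, 0.0105 for Esrra and 0.0107 for Nr2f6. Among coregulators it was 0.00852 for Ncoa6 and 0.0102 for Kmt2d. Among receptor targets it was 0.0128 for Cyp7a1, 0.00326 for Por, 0.0224 for Cyp2a5, 0.00516 for Alas1, 0.0381 for Ugt1a1 and 0.0362 for Cpt1a. Among ROR targets it was 0.00196 for Arntl and 0.00682 for Npas2.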

How the results depend on the processing

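The counts of members called were small and moved with the processing, and the cause was not tested. All genes called also changed in number between settings, for example 1224 with the replicate block against 906 without it at month 1. That share is not given here for each setting, so the member counts below are not read as a property of the members. At month 1, 1 member was called, against 3 with 6 libraries alone, 2 with DESeq2, voom or the replicate block, and 0 with the Gm26917 covariate or upper quartile factors. At month 2, 0 became 2 with 6 libraries alone, 1 with DESeq2, no low-count filter or the replicate block, 4 with voom and 2 without the 4 libraries least like their group. That last setting and the one on Saa1 were chosen after seeing the data. At month 4, 0 became 1 with 6 libraries alone, voom or without those 4 libraries, and at month 9, 0 became 2 without them. For the mean, 2 became 0 with the covariate or upper quartile factors, 1 with the 1 CPM filter, no filter or without the libraries over 1000 CPM of Saa1, and 4 with voom or without the least-like libraries. For a difference between months, 0 became 2 with voom, 1 with the block and 3 without the least-like libraries. Change over time fell to 1 member called in irradiated and 0 in control livers with the covariate, 0 and 2 within months 1 and 2, and 0 and 0 within months 4, 9 and 12. Whether the replicate numbers pair animals was not settled, and the block within months changed no other count of members by over 1.5 times. It did change counts of targets: PPAR-alpha targets called were 14 with it against 5 without it at month 1, 2 against 0 at month 2, 1 against 0 at month 4, 4 against 0 at month 9 and 15 against 2 for the mean, and PXR and CAR targets were 8 against 4 at month 1. Counts over all genes rose with it too, to 1224 against 906 at month 1, 1327 against 860 at month 2 and 767 against 708 at month 4. They were 525 against 326 at month 9 and 1607 against 1035 for the mean. The calls of Nr0b2 at month 1 (adjusted p = 0.0845) and Pck1 at month 2 (0.124) were lost with it.

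Leaving out each library gave 0 to 1 members at month 1, 0 to 1 at month 2, 0 to 2 at month 9, 0 to 4 for the mean and 0 to 1 for a difference between months. For the mean, the call of Nr1h4 was lost in 16 and that of Ppara in 17 of these 30 fits, with adjusted p up to 0.109 and 0.0911. Rora at month 2 was called without control month 1 replicate 3 (adjusted p = 0.0177), and Ppara at month 2 without irradiated month 9 replicate 1 (0.0379).

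The log2 differences that changed sign were not called. With the Gm26917 covariate, Nr1h3 became 0.15, Nr1i2 0.26, Rora 0.29 and Rxra 0.037 at month 1. Nr1i2 became 0.27 and Rxra 0.22 at month 4. At month 12 Nr1i2 became -0.34, Nr5a2 -0.00693, Pparg -0.21, Rora -0.15 and Rxra -0.12. For the mean Pparg became 0.22 and Rora 0.093. With upper quartile factors Nr1h3 became 0.073 and Rora 0.020 at month 1, Rxra 0.068 at month 4, and Nr5a2 0.0080, Pparg 0.048 and Rora 0.027 for the mean. With RLE factors Nr5a2 became -0.0205 at month 4 and Pparg 0.0022 for the mean, and with DESeq2 -0.0247 and 0.0026. With the 1 CPM filter Nr1h3 became 0.040 at month 1 and Pparg 0.020 for the mean. With voom Nr5a2 became -0.050 at month 1 and -0.00503 at month 12, and Pparg 0.024 at month 9 and 0.0070 for the mean. With 6 libraries alone Nr1h3 became 0.030 at month 1 and Rxra 0.047 at month 4. Without the least-like libraries Nr5a2 became -0.12 at month 1. Without the libraries high in Saa1 Nr5a2 became -0.027 at month 1 and -0.12 at month 12, Nr1h3 0.015 at month 12 and Pparg 0.029 for the mean.

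Leaving out each library also turned signs. At month 1 the range was -0.15 to 0.10 for Nr1h3, -0.33 to 0.088 for Rora, -0.29 to 0.0014 for Nr1i2, -0.085 to 0.12 for Nr5a2 and -0.33 to 0.033 for Rxra. At month 2 it was -0.28 to 0.018 for Nr5a2 and -0.087 to 0.19 for Nr1h4. At month 4 it was -0.057 to 0.040 for Nr5a2 and -0.055 to 0.0017 for Rxra. At month 9 it was -0.40 to 0.25 for Pparg and -0.016 to 0.18 for Rora. At month 12 it was -0.17 to 0.21 for Nr5a2 and -0.66 to 0.28 for Nr1i3, and for the mean -0.066 to 0.086 for Pparg and -0.079 to 0.0053 for Rora. Pparg, at 40 to 485 counts a library, is the member whose precision depth limits most.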
